A study of Mus musculus with 4 samples.

Results

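Accessible chromatin was mapped at 9 mouse genes that encode parts of the tight junction: the claudins Cldn1, Cldn3, Cldn4 and Cldn7, occludin (Ocln), junctional adhesion molecule A (F11r), the scaffold proteins ZO-1 (Tjp1) and ZO-3 (Tjp3), and cingulin (Cgn). All FAIRE-positive regions in the body of each gene or up to 50 kb upstream of its 5′ end were taken, with genes as annotated by GENCODE vM21 on mm10. This gave 38 regions among 35796 in all, where a region is a stretch covered by peaks of 1 or more of the 4 libraries that overlap by at least 1 bp. FAIRE-seq recovers DNA that is not held by nucleosomes after formaldehyde fixation, and sequences it. The cells were EpRas, a line derived from mouse mammary gland epithelial EpH4 cells that expresses active H-Ras. They were studied at day 4 in 4 groups with 1 peak list each. All groups were transfected with siRNA: control siRNA without TGF-β, control siRNA with TGF-β3 at 1 ng/ml, and the same TGF-β3 treatment with set 1 or with set 2 of siRNAs against both Etv4 and Etv5, a pair of ETS family transcription factors. The knockdown itself was not analysed here. With 1 list per group no test between groups was possible, so values are given with intervals that cover counting error only.

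Tight junctions are the uppermost cell contacts of an epithelium. They seal the space between neighbouring cells and hold apical and basolateral membrane proteins apart. Claudins form the strands that decide which ions pass. Occludin and junctional adhesion molecule A lie in the same membrane domain, the ZO proteins tie the strands to actin, and cingulin is a cytoplasmic plaque protein bound to the ZO proteins. In epithelial-mesenchymal transition (EMT) these junctions are typically taken apart. According to the paper, TGF-β has been reported to induce EMT in EpRas cells and not in the parental EpH4 cells.

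The regions on which the following account turns are shown first, around their summits, on the strand of the gene and on mm10. Capitals mark exact matches to an AP-1 motif (TGAGTCA or TGACTCA) or to the E-box CAGGTG, which reads CACCTG on the other strand. Stretches in annotated exons were left out. The F11r and Cldn4 promoters are given because they were called in 4 and 3 libraries, and the Cgn promoter because it was called with set 1 alone. The upstream and intronic regions are given because they held the highest value of their locus with TGF-β, were called in all 4 libraries, or were the only regions of their gene. Not every region of these kinds is printed. The other regions called in all 4 libraries are left out, and none of them held an AP-1 match. Every upstream or intronic sequence printed holds one, against 31.6% of the 38 regions, so the printed set does not represent them.

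F11r promoter, chr1:171437376-171437534, plus strand, with 1 E-box and 1 AP-1 match:
F11r promoter: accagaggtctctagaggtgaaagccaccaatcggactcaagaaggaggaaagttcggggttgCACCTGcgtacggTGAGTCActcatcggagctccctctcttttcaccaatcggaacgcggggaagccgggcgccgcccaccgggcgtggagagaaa

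Cldn4 promoter, chr5:134946939-134947119, minus strand, with 1 AP-1 and 1 E-box match:
Cldn4 promoter: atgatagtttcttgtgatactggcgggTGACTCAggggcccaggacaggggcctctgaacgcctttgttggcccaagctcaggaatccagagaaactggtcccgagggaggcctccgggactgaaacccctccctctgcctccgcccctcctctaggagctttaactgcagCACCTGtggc

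Cgn promoter, chr3:94786493-94786636, minus strand, with no match:
Cgn promoter: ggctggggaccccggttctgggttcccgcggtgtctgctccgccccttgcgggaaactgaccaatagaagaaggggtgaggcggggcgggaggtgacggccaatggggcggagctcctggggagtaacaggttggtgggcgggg

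Cldn4 region 12.4 kb upstream, chr5:134959203-134959383, minus strand, with 1 AP-1 match:
Cldn4 upstream: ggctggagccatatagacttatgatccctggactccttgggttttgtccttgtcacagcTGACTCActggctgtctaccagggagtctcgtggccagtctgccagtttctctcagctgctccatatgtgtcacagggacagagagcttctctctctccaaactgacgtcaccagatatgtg

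Cldn3 region 4.65 kb upstream, chr5:134981473-134981653, plus strand, with 1 AP-1 match:
Cldn3 upstream: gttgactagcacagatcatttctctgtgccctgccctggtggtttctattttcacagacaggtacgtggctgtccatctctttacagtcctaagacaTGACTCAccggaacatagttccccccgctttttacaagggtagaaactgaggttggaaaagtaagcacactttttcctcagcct

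Ocln intronic regions, chr13:100536188-100536368 and chr13:100543504-100543684, minus strand, with 2 and 1 AP-1 matches:
Ocln intron, 16.35 kb: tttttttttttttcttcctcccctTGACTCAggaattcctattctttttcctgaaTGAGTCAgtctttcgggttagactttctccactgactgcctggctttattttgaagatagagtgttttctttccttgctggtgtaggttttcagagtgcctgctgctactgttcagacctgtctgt
Ocln intron, 9.13 kb: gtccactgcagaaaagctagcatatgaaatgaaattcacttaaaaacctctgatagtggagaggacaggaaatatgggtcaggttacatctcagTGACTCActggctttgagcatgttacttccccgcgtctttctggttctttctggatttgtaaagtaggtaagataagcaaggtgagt

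Tjp1 intronic region 117.0 kb from the 5′ end, chr7:65410657-65410837, minus strand, with 1 AP-1 match:
Tjp1 intron: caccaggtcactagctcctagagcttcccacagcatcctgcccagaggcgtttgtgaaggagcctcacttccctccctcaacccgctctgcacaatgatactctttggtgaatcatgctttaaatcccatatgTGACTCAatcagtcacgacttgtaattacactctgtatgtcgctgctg

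The libraries held 14925 to 28754 peaks, fewest with set 2, although set 2 had the highest estimated depth (20.7 M reads, where M stands for 1000000, against 15.3 to 17.3 M in the others). Promoter regions of epithelial keratin and adhesion genes were called for 6 of 8 markers in the untreated library, 4 with TGF-β, 4 for set 1 and 3 for set 2. For 10 markers of blood, endothelial, stromal and muscle cells the numbers were 1, 1, 0 and 0. Of all coding genes, 38.1%, 40.4%, 36.2% and 28.9% had a promoter region in these libraries. The epithelial shares were 75%, 50%, 50% and 37.5%, so they were near that of all genes outside untreated cells. With 8 markers, differences between libraries were not tested. Of the epithelial markers, Krt8 and Krt14 were called in all 4 libraries, Krt18 in all but set 2, and Krt5 in none. Epcam and Krt7 were called in untreated cells alone, Cdh1 in untreated cells and set 2, and Krt19 with TGF-β and set 1. A pair of measures is used. The fold enrichment is the authors' ratio of the summit to its local background. The summit fragments, solved from the deposited fold enrichment and p-value, are the whole number of fragments that overlapped the summit, and are also given as FPM, fragments per 1000000 reads of the estimated depth. Over all regions called in the 4 libraries, the median ratio of FPM was 1.13 for TGF-β to untreated, 0.834 for set 1 to TGF-β and 0.613 for set 2 to TGF-β. The interval of every member ratio given here included the median ratio of its comparison, also where it did not include 1.

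The 9 genes differed widely in the number of accessible regions around them. Cldn3 and Cldn4 each had 11 regions in their windows, a number above 98.8% of the windows of 21938 protein-coding genes, of which the median was 2. Tjp1 had 8 regions, Cldn7 7, Tjp3 4, F11r 3, Ocln 2, Cgn 2 and Cldn1 none. Window length differs between genes, since Tjp1 alone spans 232 kb. Per 10 kb the density was 2.15 for Cldn3, 2.12 for Cldn4 and 1.32 for Cldn7, against 0.284 for Tjp1, 0.188 for Ocln and a median of 0.197 over all coding genes.

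By library, 22 of the 38 regions were called in untreated cells, 26 with TGF-β, 25 for set 1 and 18 for set 2. Promoter regions, those whose middle lay within 2 kb of an annotated start site of the gene, numbered 5, 4, 4 and 3 in this order. Intronic regions numbered 7, 8, 7 and 6, and upstream regions 10, 14, 14 and 9. With every list shortened to the length of that of set 2, keeping the regions of lowest q-value, 12, 15, 16 and 18 were called, so that the low number with set 2 depended on list length. No region had its middle in an exon. Of the 38 regions, 10 (26.3%) were called in all 4 libraries, close to the 29.6% of all regions, and 14 (36.8%) in a single library, against 31.5% of all regions. In 9 regions the middle was within 2 kb of the start site of another protein-coding gene: Usf1, Pip5k1c, Cactin, Eif5a, Ybx2 or Slc2a4. Accessibility there cannot be assigned to the tight junction gene from these data.

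**Figure D1:**
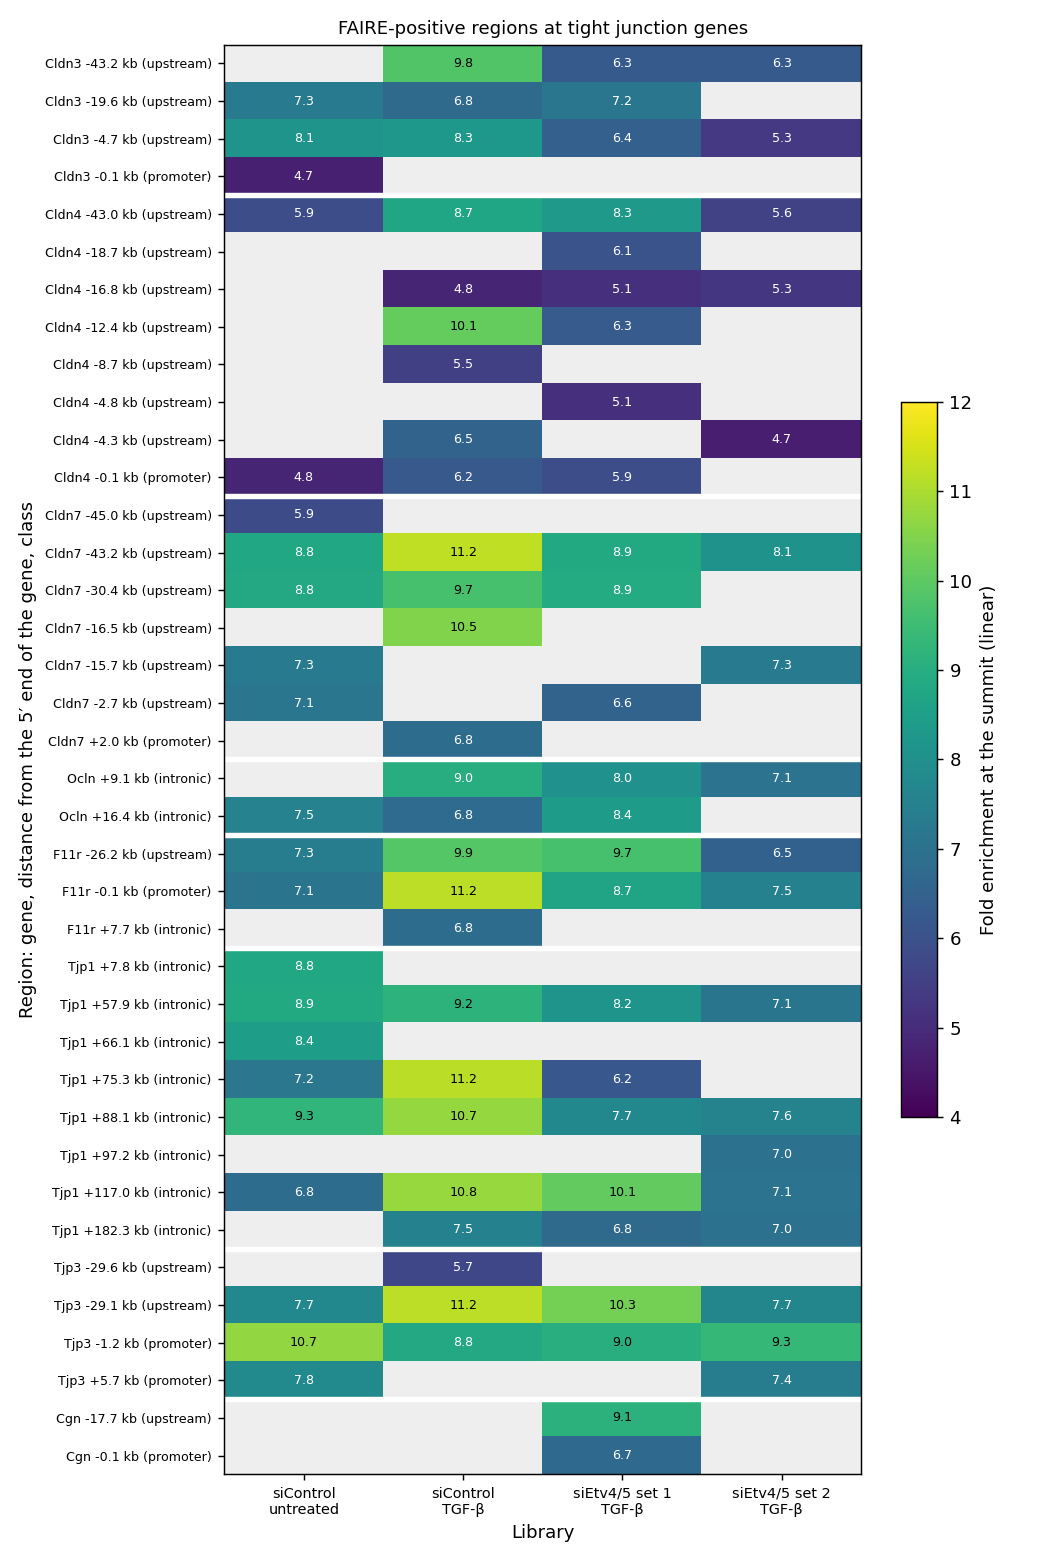
Fold enrichment (linear, printed in each cell) of the 38 regions in the 4 libraries, 1 row per region, labelled by gene, distance from the 5′ end of the gene and class. Grey cells have no peak. In the 12 rows of Cldn3 and Cldn4, 5 cells are filled for untreated cells and for set 2 and 9 for each of TGF-β and set 1, and 10 rows of the plot are filled in all 4 columns.

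No claudin gene among the members had a promoter region called in all 4 libraries. Cldn1, a claudin of many barrier epithelia, had no FAIRE-positive region anywhere in its body (chr16:26356642-26371841) or in the 50 kb upstream, in any library. The same was true of 5941 coding genes (27.1%). The nearest region to its start site lay 55.4 kb downstream (chr16:26316270-26316637) and was called in all 4 libraries, with fold enrichments of 10.5 untreated, 11.9 with TGF-β, 7.19 for set 1 and 8.44 for set 2. An accessible site was therefore called near the locus in every library, but outside the window of the gene.

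Cldn3 and Cldn4, which encode a pair of closely related claudins, lie head to head on chromosome 5 (Cldn4 at chr5:134945119-134946934 on the minus strand, Cldn3 at chr5:134986214-134987472 on the plus strand) with start sites 39.3 kb apart. Their windows overlap, and together they held 12 regions within 47.3 kb. Of these, 5 were called in untreated cells, 9 with TGF-β, 9 for set 1 and 5 for set 2, and 7 of the 12 had no peak in untreated cells, as had 38.1% of all regions. In 4 of these 7 the count needed for a call lay inside the counting interval of the highest library, and in 3 below it. In these bulk samples, fewer cells with open chromatin and less open chromatin per cell cannot be told apart, here and in the rest of the account.

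The Cldn4 promoter region (chr5:134946951-134947186), whose middle lies 134 bp upstream of the start site, was called in 3 libraries. Its fold enrichment was 4.81 in untreated cells, 6.23 with TGF-β and 5.88 with set 1. These were low values: 0.47% of the peak-holding regions of the untreated library and 8.49% of those with TGF-β had a lower one. The summit fragments were 17 (95% Poisson interval 9.90 to 27.2), 30 (20.2 to 42.8) and 27 (17.8 to 39.3), and the ratio of TGF-β to untreated in FPM was 1.66 (0.885 to 3.20). That interval includes 1, so a change was not detectable at this depth. With set 2 a peak would have needed 20 fragments, while 38.1 (25.7 to 54.4) corresponded to the TGF-β value at the depth of set 2.

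At Cldn3 the promoter region (chr5:134986069-134986249, with its middle 55 bp upstream of the start site) was called in untreated cells alone. Its fold enrichment was 4.71, with 20 summit fragments (12.2 to 30.9). With TGF-β a call would have needed 18 fragments, where 21.3 (13.0 to 32.9) would correspond to the untreated value. The missing call is therefore inside the counting error. Cldn3 was the only member gene with a promoter region in untreated cells alone, and Cldn4 the only one with a promoter region in all libraries but set 2.

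Between the genes, the highest value with TGF-β was at a region 12.4 kb upstream of Cldn4 (chr5:134959183-134959425). It was not called in untreated cells, had a fold enrichment of 10.1 with TGF-β and 6.28 with set 1, and was not called with set 2. The summit fragments were 43 (31.1 to 57.9) with TGF-β and 27 (17.8 to 39.3) with set 1, and the ratio of set 1 to TGF-β was 0.591 (0.351 to 0.979). Since the region is singled out for its high TGF-β value, ratios to that value are biased towards lower levels elsewhere, and its intervals are a description. In untreated cells 17 fragments would have given a call, and 40.4 (29.2 to 54.4) would be the TGF-β value at that depth. With set 2 the numbers were 19 and 54.6 (39.5 to 73.5).

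A region 43.2 kb upstream of Cldn3, which lies beyond the 3′ end of Cldn4, had the next highest value with TGF-β (chr5:134942843-134943096). It was not called in untreated cells and had fold enrichments of 9.83 with TGF-β, 6.27 for set 1 and 6.25 for set 2. The set 2 to TGF-β ratio of FPM was 0.549 (0.308 to 0.963) and that of set 1 was 0.628 (0.349 to 1.11). Singled out by its TGF-β value, it has the same bias. In untreated cells 14 fragments would have been called, below the interval of 31.0 (21.3 to 43.5) that the TGF-β value gives.

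The Cldn3 and Cldn4 locus also had regions called in all 4 libraries. A region 4.65 kb upstream of Cldn3 (chr5:134981451-134981674) had fold enrichments of 8.13 in untreated cells, 8.25 with TGF-β, 6.45 for set 1 and 5.31 for set 2. The ratio of FPM of TGF-β to untreated was 0.907 (0.520 to 1.58), and that of set 2 to TGF-β with control siRNA was 0.450 (0.227 to 0.861). The latter interval excluded 1 and included the 0.613 of all regions. A region beyond the 3′ end of Cldn3 (chr5:134989716-134990096), in the body of the neighbouring Wbscr25, had 5.88, 8.74, 8.33 and 5.57. Its TGF-β and set 1 values were both above those of the other 2 libraries. Its ratios were 1.52 (0.858 to 2.76) for TGF-β to untreated and 0.417 (0.222 to 0.759) for set 2 to TGF-β. Over all regions called in the 4 libraries the medians of these ratios were 1.13 and 0.613.

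The remaining 6 regions of the locus were called in 1 to 3 libraries with fold enrichments of 4.67 to 7.25. The local background behind the fold enrichment, counted in 10 kb around each summit and divided by the genome-wide floor, had medians of 2.62, 2.90, 2.39 and 2.05 at this locus in the order untreated, TGF-β, set 1 and set 2. At the other member loci the medians were 1.49 to 1.52, and over all regions 1.52 to 1.57. Fold enrichments are thus divided by a higher local background here than elsewhere, and a higher count was needed for a call. The part of this background in the missing calls was not tested beyond the limits given.

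**Figure D2:**
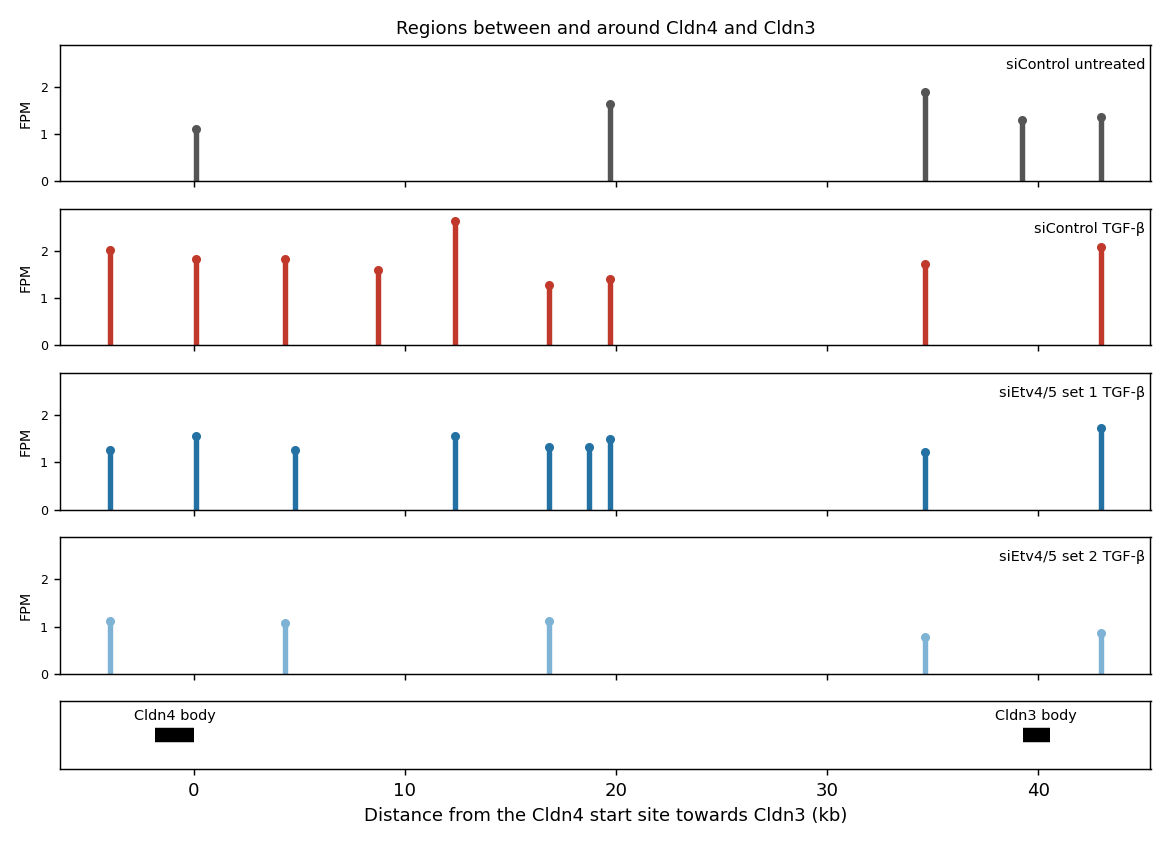
Summit fragments as FPM (linear, 1 panel per library) against the distance in kb from the Cldn4 start site towards Cldn3, with the gene bodies in black. Stems stand for called regions: 5 in untreated cells, 9 with TGF-β, 9 for set 1 and 5 for set 2, the highest being 2.64 with TGF-β at 12.4 kb.

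Cldn7 (chr11:69964779-69967885), another claudin of barrier epithelia, had 7 regions, of which 5 were at the start sites of other genes. The only promoter region lay 1.98 kb into the gene (chr11:69966695-69966827), 157 bp upstream of an inner annotated start site, and was called with TGF-β alone at 6.83 with 16 summit fragments (9.15 to 26.0). At the 5′ end itself no library had a region. The closest upstream region with no other coding start site nearby, 2.74 kb away (chr11:69961958-69962129), was called in untreated cells at 7.13 and with set 1 at 6.55. The one region of the window called in all 4 libraries sat at the Eif5a start site 43.2 kb upstream (chr11:69921263-69921859). It had 8.75 untreated, 11.2 with TGF-β, 8.87 for set 1 and 8.09 for set 2, the highest of the window with TGF-β and with set 2. Its set 2 to TGF-β ratio was 0.492 (0.313 to 0.764).

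Occludin (chr13:100496507-100552718) had intronic regions only. The region 16.35 kb into the gene (chr13:100536211-100536517) was called in all libraries but set 2, at 7.54 untreated, 6.79 with TGF-β and 8.42 with set 1. The region 9.13 kb into the gene (chr13:100543514-100543669) was called in all but the untreated library, at 8.99 with TGF-β, 8.04 for set 1 and 7.06 for set 2. Each of the 2 regions thus had 3 calls, and the intervals of all their ratios included 1. For the first region, the 14 fragments needed for a call with set 2 lay below the interval of 28.7 (18.4 to 42.7) scaled from set 1. Both hold AP-1 matches, as printed in their sequences. No region was at the Ocln promoter in any library.

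For F11r (chr1:171437535-171464603), the adhesion molecule of the immunoglobulin family, the promoter was accessible in all 4 libraries (chr1:171437297-171437596, middle 89 bp upstream of the start site). The non-coding gene Gm26641 also starts there. Fold enrichments were 7.07 in untreated cells, 11.2 with TGF-β, 8.68 for set 1 and 7.51 for set 2, from 25, 44, 35 and 28 summit fragments. TGF-β thus had the highest value and untreated cells the lowest by fold enrichment, with a ratio of FPM of 1.65 (0.990 to 2.82) that just included 1. The set 2 to TGF-β ratio was 0.501 (0.300 to 0.823), and that of set 1 was 0.749 (0.466 to 1.20).

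At the other F11r regions no difference beyond counting error was detectable. A region at the Usf1 start site 26.2 kb upstream (chr1:171411227-171411412) had 7.34, 9.89, 9.66 and 6.48 in the same order. An intronic region 7.73 kb into the gene was called with TGF-β alone, at 6.83 with 18 fragments. The call limits of 12, 13 and 14 fragments in the other 3 libraries lay inside the counting interval of that value.

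Tjp1 (chr7:65296165-65527781), which encodes the scaffold ZO-1, had 8 regions, all intronic, and no promoter region. GENCODE gives it distant start sites. The 5′ end used here belongs to transcripts outside the basic set, while the start site of the basic transcripts, at which the RefSeq promoter also lies, is 157 kb further in (chr7:65371239). Of the 8 regions, 7 lay between the 5′ end and this inner start site and 1 lay downstream of it, so 7 are upstream of the gene if the inner start is used. Neither start site had a region within 2 kb in any library.

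Among the Tjp1 regions, 3 were called in all 4 libraries. The region 117.0 kb from the 5′ end (chr7:65410603-65410862), 39.5 kb upstream of the inner start, had fold enrichments of 6.84 untreated, 10.8 with TGF-β, 10.1 for set 1 and 7.06 for set 2. By fold enrichment TGF-β and set 1 were above the other libraries. The set 2 to TGF-β ratio of FPM was 0.584 (0.325 to 1.04), which included 1 and the 0.613 of all regions. The TGF-β to untreated ratio was 1.82 (0.965 to 3.56), the largest among the 10 regions called in all libraries, and its interval included 1. The region at 88.1 kb (chr7:65439553-65439873) had 9.26, 10.7, 7.75 and 7.59, and that at 57.9 kb (chr7:65469663-65470152) had 8.87, 9.18, 8.15 and 7.11. The intervals of both included 1 in every comparison.

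The region at 75.3 kb (chr7:65452330-65452532) had 7.18 untreated, 11.2 with TGF-β and 6.17 with set 1, and was not called with set 2. The call limit of 13 in set 2 was below the interval of 31.7 (20.5 to 46.9). Single-library regions lay at 7.82 kb and 66.1 kb in untreated cells, at 8.80 and 8.44, and at 97.2 kb with set 2, at 6.97. For both untreated regions the limits for a call with TGF-β (10 and 12 fragments) were below the scaled intervals of 18.1 (10.5 to 29.0) and 20.2 (12.2 to 31.6). In both cases the margin between the limit and the lower bound was narrow.

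**Figure D3:**
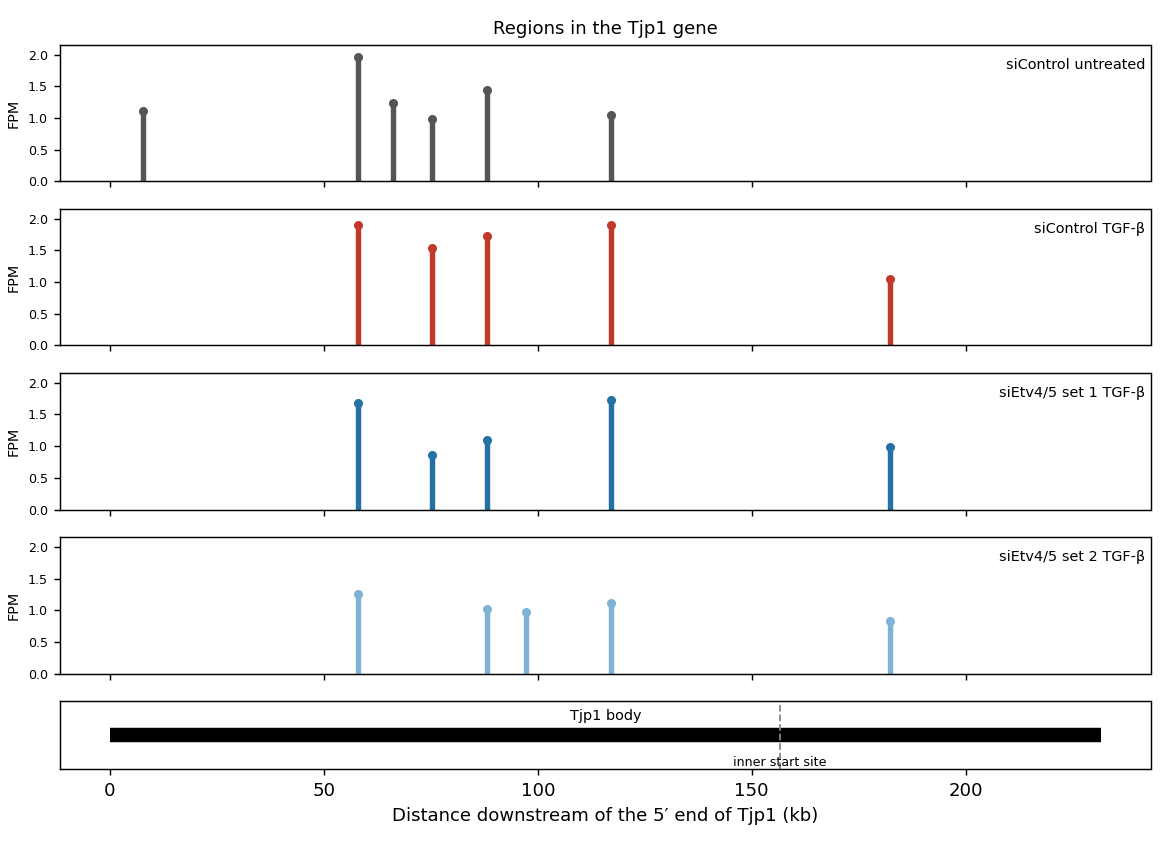
Summit fragments as FPM (linear, 1 panel per library) against the distance in kb downstream of the 5′ end of Tjp1, with the gene body in black and the inner start site dashed. Each stem is a called region; no stem stands at the 5′ end or at the inner start site, and the stems at 57.9, 88.1 and 117.0 kb recur in all 4 panels.

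Tjp3 (chr10:81273207-81291581), which encodes ZO-3, a scaffold limited to epithelia, had the promoter region with the highest mean fold enrichment among the members. It lay 1.20 kb upstream of the start site (chr10:81292566-81292992) and also at the start of Pip5k1c, a lipid kinase gene. Fold enrichments were 10.7 untreated, 8.82 with TGF-β, 9.05 for set 1 and 9.33 for set 2. Unlike the other 9 regions called in all libraries, it was lower by fold enrichment with TGF-β than without, with a ratio of FPM of 0.763 (0.437 to 1.32) that included 1. It was also the 1 region of these 10 with a higher fold enrichment with each siRNA set than with control siRNA, with ratios of FPM of 1.23 (0.717 to 2.14) for set 1 and 0.969 (0.560 to 1.69) for set 2. Apart from Pip5k1c, which shares the region, the promoters most alike over the 4 libraries among 5356 coding genes compared were those of Wbp1, Copb1 and Naif1, with Euclidean distances of 0.0651, 0.0830 and 0.0921 on the log2 scale.

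An inner Tjp3 start site, 5.65 kb into the gene (chr10:81285854-81286002), was called in untreated cells at 7.81 and with set 2 at 7.38, from 16 and 17 fragments. The pattern of untreated and set 2 alone was found in 2 member regions (5.26%), beside 0.810% of all regions. The other region was at the Slc2a4 start site in the Cldn7 window. At both, the limits for a call with TGF-β and with set 1 lay inside the interval scaled from untreated cells. The missing calls are therefore inside the counting error. Upstream, a region at Cactin (chr10:81320318-81321008) had 7.75, 11.2, 10.3 and 7.66 and its set 2 to TGF-β ratio was 0.512 (0.300 to 0.860). TGF-β and set 1 were above the other 2 libraries there.

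Cingulin (chr3:94760069-94786492) had called regions in the set 1 library alone. Its promoter region (chr3:94786466-94786626, middle 54 bp upstream of the start site) had a fold enrichment of 6.75 with 25 summit fragments (16.2 to 36.9), and a region 17.7 kb upstream (chr3:94804086-94804276) had 9.13 with 20 fragments (12.2 to 30.9). Calls in set 1 alone were found in 4 member regions (10.5%), beside 5.85% of all regions. At both regions of Cgn the other libraries treated with TGF-β had limits for a call below the interval of the set 1 value. Set 1 is the reference because it was highest, which favours this result. With control siRNA the margin was narrow at both, with a limit of 11 against a lower bound of 11.5 at the upstream region. With TGF-β and control siRNA the promoter would have needed 15 fragments, where the interval was 23.5 (15.2 to 34.8), and with set 2 it would have needed 17, where it was 29.9 (19.3 to 44.1). The limit in the untreated library lay inside its interval at both regions, so a difference from untreated cells was not detectable.

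Over the 9 genes, promoter regions were found at 4 genes in untreated cells (Cldn3, Cldn4, Tjp3 and F11r), at 4 with TGF-β (Cldn4, Cldn7, Tjp3 and F11r), at 4 with set 1 (Cldn4, Tjp3, F11r and Cgn) and at 2 with set 2 (Tjp3 and F11r). Of all coding genes, 38.1%, 40.4%, 36.2% and 28.9% had one. The number at the members thus stayed at 4 in the first 3 libraries, while the genes differed. With lists of equal length it was 2 in untreated cells, 2 with TGF-β, 4 for set 1 and 2 for set 2. With promoters limited to 1 kb it was 4, 3, 3 and 2. Cldn1, Ocln and Tjp1 had none in any library, as had 54.9% of all coding genes.

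The first comparison asks how TGF-β changes accessibility at these genes. Of 26 regions called with TGF-β, 11 were gained, that is, not called in untreated cells, which is 42.3% (Wilson 95% interval 25.5 to 61.1) beside 36.9% of all regions called with TGF-β. Of 22 untreated regions, 7 were lost, 31.8% (16.361 to 52.7) beside 18.4% of all. Both intervals included the share of all regions. The gained regions were at Cldn3 and Cldn4 (5 regions in the shared locus), Cldn7, Ocln, Tjp1, Tjp3 and F11r, and the lost ones were the Cldn3 promoter, the inner Tjp3 promoter, 2 Tjp1 introns and 3 regions upstream of Cldn7. Of the 15 shared regions, 3 were higher by at least 1.5-fold in fold enrichment with TGF-β, beside 5.92% of all shared regions: the F11r promoter and the Tjp1 regions at 117.0 and 75.3 kb. None was lower by that rule, beside 0.924%. All 15 intervals of the ratio of FPM included 1, and 2.27% of all shared regions had one that did not.

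At the 10 regions called in all libraries, the log2 ratio of fold enrichment of TGF-β to untreated had a median of 0.40, with 9 regions higher and 1 lower, beside a median of 0.14 and 68.3% higher over the 10594 regions of this kind. By FPM 7 were higher and 3 lower. With 10 kb upstream in place of 50 the median was 0.13, no higher than that of all regions. The individual values ranged from -0.28 to 0.66.

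The other comparisons ask what the Etv4/5 siRNAs change in the presence of TGF-β. Both are made against the same control library, and so they share its errors. With set 1, 5 of 25 regions were gained (20.0%, 8.86 to 39.1), beside 15.2% of all, and 6 of 26 were lost (23.1%, 11.03 to 42.1), beside 33.7% of all. With set 2, 3 of 18 were gained (16.7%, 5.84 to 39.2), beside 10.3%, and 11 of 26 were lost (42.3%, 25.5 to 61.1), beside 53.6%. The interval of each of these shares included the share of all regions. With lists of equal length TGF-β gained 7 regions and lost 4 against untreated cells, and set 2 gained 7 and lost 4 against TGF-β, so that the excess of losses with set 2 turned into an excess of gains. Set 1 gained both Cgn regions, a pair upstream of Cldn4 and the one 2.74 kb upstream of Cldn7.

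By the 1.5-fold rule, 3 of 20 shared regions were lower with set 1, beside 6.6%, and 5 of 15 with set 2, beside 24.2%. None was higher with either set, beside 0.557% and 0.0901% of all shared regions. The 3 lower regions with set 1 were the Tjp1 region at 75.3 kb, the region 12.4 kb upstream of Cldn4 and the one 43.2 kb upstream of Cldn3. At the 10 constant regions the median log2 ratio of fold enrichment was -0.14 with set 1 (all regions of this kind -0.18) and -0.56 with set 2 (-0.40), and 9 of 10 regions were lower with each set. In FPM the medians were -0.29 and -0.88, beside -0.26 and -0.71. The lower values with set 2 were thus found at all regions and not at the members alone. The ratio interval of set 1 excluded 1 in 1 of 20 shared regions, beside 4.11% of all, and that of set 2 in 6 of 15, beside 33.2%. All of these intervals included the median ratio of all regions.

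**Figure D4:**
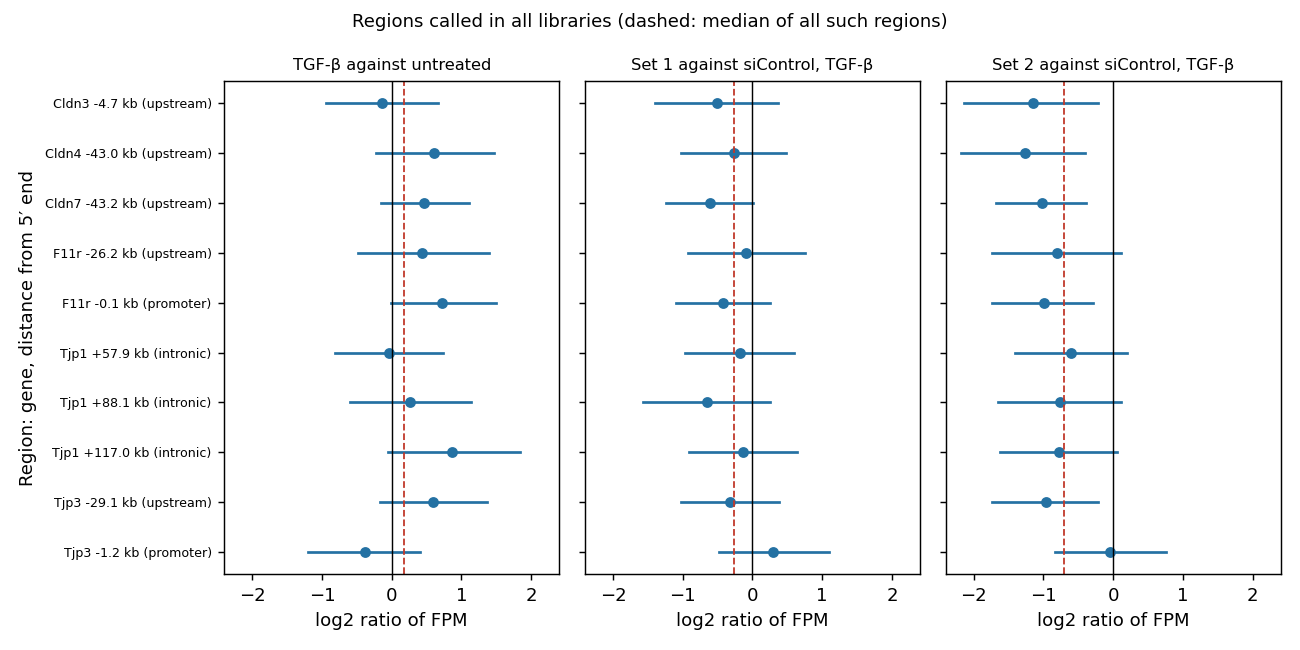
Log2 ratio of FPM with its 95% counting interval (points and lines) at the 10 regions called in all libraries, 1 panel per comparison, each relative to its named control. The dashed line is the median of all regions called in all libraries, 0.17 in the TGF-β panel, -0.26 in that of set 1 and -0.71 in that of set 2. With TGF-β every interval includes 0, and with set 2 the intervals of 5 of the 10 regions do not.

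A missing call cannot be read as closed chromatin. The 38 regions lacked a call in 61 cases of region and library, where 10 to 21 summit fragments would have been needed, given the local background. In 35 of the 61 cases this limit lay inside the counting interval of the highest library scaled to the depth of the other, so that the call could be missing by counting error. In the remaining 26 it lay below the interval. The highest library was taken as the reference because of its value, which enlarges this number, and the scaling is by depth alone. By the same rule 51.7% of all missing calls lay below the interval, so that the members had no excess. Of the 26, 14 were among the 20 missing calls of set 2 (all regions 72.2%), and 4 each among the 16, 12 and 13 missing calls of untreated cells (35.6%), TGF-β (29.7%) and set 1 (47.8%).

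The sequences of the 38 regions were searched on both strands, from 100 bp before to 100 bp after the summit, for 5 motifs. AP-1 matches (TGAGTCA or TGACTCA) were found in 12 regions (31.6%, 19.1 to 47.5), beside 32.2% of all regions. Of the 23 regions more than 2 kb from any coding start site, 10 held one (43.5%, 25.6 to 63.2), and of all such regions 41.6%. Of the promoter regions of the members, those of F11r and Cldn4 held one. The ETS motif (CCGGAAG or CAGGAAG), the kind that Etv4 and Etv5 bind, was in 2 regions (5.26%, 1.46 to 17.3), beside 17.6% of all. Within 50 bp of the summit the member share was the same and that of all regions 10.3%, inside the interval. They were the region 16.8 kb upstream of Cldn4 and the one 29.6 kb upstream of Tjp3 at Cactin. The E-box CAGGTG, the site of the EMT factors Snai1 and Zeb1, was in 6 regions (15.8%), beside 13.6%. RUNX (TGTGGT) was in 5 (13.2%), beside 20.0%, and grainyhead (AACCGGTT, AACTGGTT or AACCAGTT) in none, which allows up to 9.18% by the Wilson interval, beside 0.933%. A match describes the letters and not the binding of a factor.

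The RefSeq promoters of the members, 12 sequences from 250 bases before to 50 after a start site on GRCm38.p6, were matched for all 9 genes. The E-box was in 8 of the 12, belonging to Cldn3, Cldn4, Cldn7, Ocln, F11r and Tjp3, beside 19.7% of 21263 promoters. Ocln and Tjp3 count with 2 sequences each, and those of Ocln overlap. Of the 12, AP-1 was in 2 (4.66% of all promoters), ETS in 3 (22.6%), RUNX in 2 (15.0%) and grainyhead in 0 (0.926%). No intervals were computed for these promoter shares, and the E-box excess was not tested. The median GC content of the 12 was 60.8%, beside 56.3%. The promoters of Cldn1, Cgn and Tjp1 had no match to any of the 5 motifs.

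Among 33 other genes of tight junctions and polarity, promoter regions were called at 17 in untreated cells, 17 with TGF-β, 18 for set 1 and 12 for set 2. These are 51.5%, 51.5%, 54.5% and 36.4%, each above the share of all coding genes given before. Of the 33, 11 (33.3%) had a promoter region in all 4 libraries, beside 25.2% of all coding genes. Among them were Amotl1, Arhgef2, Cldn12, Cldn6, Crb3, Lsr, Pard6b, Prkci, Prkcz and Sympk. A further 13 (39.4%, beside 54.9% of all coding genes) had none in any: Cgnl1, Cldn15, Cldn2, Cldn5, Cldn8, Cldn9, Ildr1, Jam2, Jam3, Magi1, Marveld2, Marveld3 and Patj.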

How the data were processed

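FAIRE-seq peak lists of 4 EpRas libraries were analysed, 1 per group, with groups taken from the labels. Per the study's methods, 2 biological replicates were obtained, which the deposited lists may combine. The authors trimmed reads to 36 bp, aligned them to mm10 with Bowtie and called peaks with MACS2 (2.1.0 in the submitters' processing notes) at a q-value limit of 0.0001. The deposited lists hold, at the summit of each peak, a fold enrichment (a ratio to local background) and the -log10 of its p-value and of its q-value, beside a score left unused here.

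Summit fragments and local background were solved from the deposited fold enrichment and Poisson p-value, and came out whole in 100% of peaks. Depth was estimated from the genome-wide background floor. Peaks overlapping by at least 1 bp were merged, keeping the strongest peak of each library. A promoter was within 2 kb of a start site. Intervals (95%) were exact Poisson for counts, conditional binomial for ratios and Wilson for shares, and cover counting error only. The member genes, gene lists and motifs were chosen with earlier results of these data known. All 9 genes, their promoter regions and the regions called in all libraries were named, with at most 2 further regions per gene given by position. Some results are not reported here. Python 3.11.15, numpy 2.4.6, pandas 2.3.3 and scipy 1.17.1 were used. The solving of summit fragments, the merging of peaks and the ratio interval were tested on simulated data, and the other steps were not.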

Additional observations from a re-analysis of the deposited data

How the results depend on the processing

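With 1 list per group the spread between replicates is unknown, and missing calls depend on depth and local background. No paired analysis was possible because each group had a single peak list. Of 82 values recomputed under other settings, 64 stayed within set bounds (1.5 times a count, or the interval of a share or median) and 18 moved beyond them. Only the median log2 ratios could change sign, and none of them did. With 10 kb upstream of the start site instead of 50, regions numbered 14 in untreated cells, 15 with TGF-β, 14 for set 1 and 11 for set 2, TGF-β gained 6, set 1 gained 3, and set 2 lost 6, and the TGF-β median was 0.13. With lists of equal length, that of the set 2 library, regions numbered 12 in untreated cells, 15 with TGF-β and 16 with set 1. TGF-β then gained 7 and lost 4, set 2 gained 7 and lost 4 (3 and 11 in the full lists), and promoter regions were at 2 genes in untreated cells and at 2 with TGF-β. Set 2 thus had more losses than gains in the full lists and more gains than losses in these. As summit fragments scaled by depth, the set 2 median was -0.88. Within 50 bp of the summit, RUNX matches were in 2.63% of regions (12.1% of all) and E-boxes in 7.89% (7.47% of all). ETS matches stayed at 5.26% (10.3% of all). A q-value limit 100 times stricter removed 92 to 142 peaks per library and no member region, so it tested little. A promoter distance of 1 kb, which leaves out the Tjp3 region at 1.20 kb, gave 4, 3, 3 and 2 genes. Other overlap rules changed no count. With the basic annotation, which drops Tjp1 regions far upstream, regions numbered 17, 23, 22 and 15 in the order of the libraries.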
